A study of Mus musculus with 4 samples.

Results

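The fibroblast growth factor (FGF) genes examined here were 6 ligands, Fgf3, Fgf4, Fgf8, Fgf15, Fgf17 and Fgf18, and the receptor gene Fgfr1. They were chosen by name, as every non-control probe that the scanner files assign to one of these symbols. Of the 7 genes, 6 had a probe, with 10 probes in all, out of 27573 named genes and 41174 probes on the array. No probe carried the name Fgf4. All 10 probes were well above background in both channels on all 4 arrays, so each of the 6 genes was measured in both genotypes.

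The samples were posterior tissue of mouse embryos with 5 or 6 somites, cut at the boundary of the last somite. Cdx2+/-Cdx4-/- embryos, which lack Cdx4 and carry a single intact copy of Cdx2, were set against wildtype embryos. Each RNA came from a pool of 10 embryos, and mutant and wildtype RNA were hybridised together in the Cy3 and Cy5 channels of 4 Agilent arrays. The labels describe replicates 1 and 2, each with a dye swap. Arrays 1 and 2 below are replicate 1 and its dye swap, and arrays 3 and 4 are replicate 2 and its dye swap. Whether each replicate had its own pool of embryos is not stated, and the p-values below then reflect no more than variation among hybridisations, possibly technical.

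FGF ligands are secreted proteins that bind tyrosine kinase receptors together with heparan sulfate and signal through the RAS and ERK cascade. In the tail bud they form a gradient that is highest at the posterior end, where it keeps axial progenitors and presomitic mesoderm immature and helps to place the next somite boundary. Sprouty proteins, DUSP phosphatases and ETS factors are transcribed in answer to the signal, and several of them feed back on it. Cdx1, Cdx2 and Cdx4 encode homeodomain factors that are needed for the posterior body to elongate.

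The direction of the ratios is not settled by the labels. Arrays of the same labelled dye orientation ran against each other, with a correlation of -0.43 across 21800 tested probes for arrays 1 and 3 and for arrays 2 and 4 (-0.36 and -0.38 over all 41174 probes). Each array was therefore turned so that Cdx4 was negative, as the rule for these genes states. Cdx4 then stood at -2.59, -2.11, -2.82 and -2.42 on arrays 1 to 4 (log2), which is a consequence of the rule. Cdx2, which the rule did not use, was negative on all 4 turned arrays (mean -0.54 ± 0.097, moderated standard error, n = 2 replicates, adjusted p = 0.00186 by limma). Cdx1 was higher, at 0.40 ± 0.11 (adjusted p = 0.0304). Ratios below are log2 of mutant over wildtype in this turned direction. It is the direction of the labels on arrays 1 and 4 and the opposite of the labels on arrays 2 and 3. With the sign turned, every value below changes sign and every "higher" becomes "lower".

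In the turned direction all 6 genes had a positive mean ratio. Of them, 3 rose in the mutant (Fgf15, Fgf18 and Fgf17), none fell, and Fgf3, Fgf8 and Fgfr1 did not pass the test. At an unadjusted p under 0.05 in limma, 4 were higher and 0 lower, beside 2901 of 14842 genes in either direction. With the sign turned the counts are 0 higher and 3 lower. Over all 14842 genes tested, 2.94% passed as higher and 3.91% as lower. The 6 genes had a median ratio of 0.32, beside a median of 0.015 over all genes. A change was called where it passed an adjusted p of 0.05 with arrays 1 and 2 averaged as one replicate and arrays 3 and 4 as the other. If arrays 1 and 3 are paired instead, and arrays 2 and 4, 5 of the 6 genes (all but Fgf8) passed as higher, where 21.6% of all genes did, and none as lower, where 18.8% did. With the 4 arrays as units and a dye term, 5 passed as higher and none as lower, where 24.6% and 20.7% of all genes did. The pairing of arrays 1 with 3 and 2 with 4 assigns nearly the same standard error of 0.052 to every gene, so the stricter count is the one used below. None of the 6 passed as higher with the arrays as labelled, with median centring in place of loess or without the filter on dim probes. Few genes of any kind did: 2 of 14445 passed as higher as labelled and 10 of 27544 without the filter. Under median centring no gene on the array passed.

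**Figure D1:**
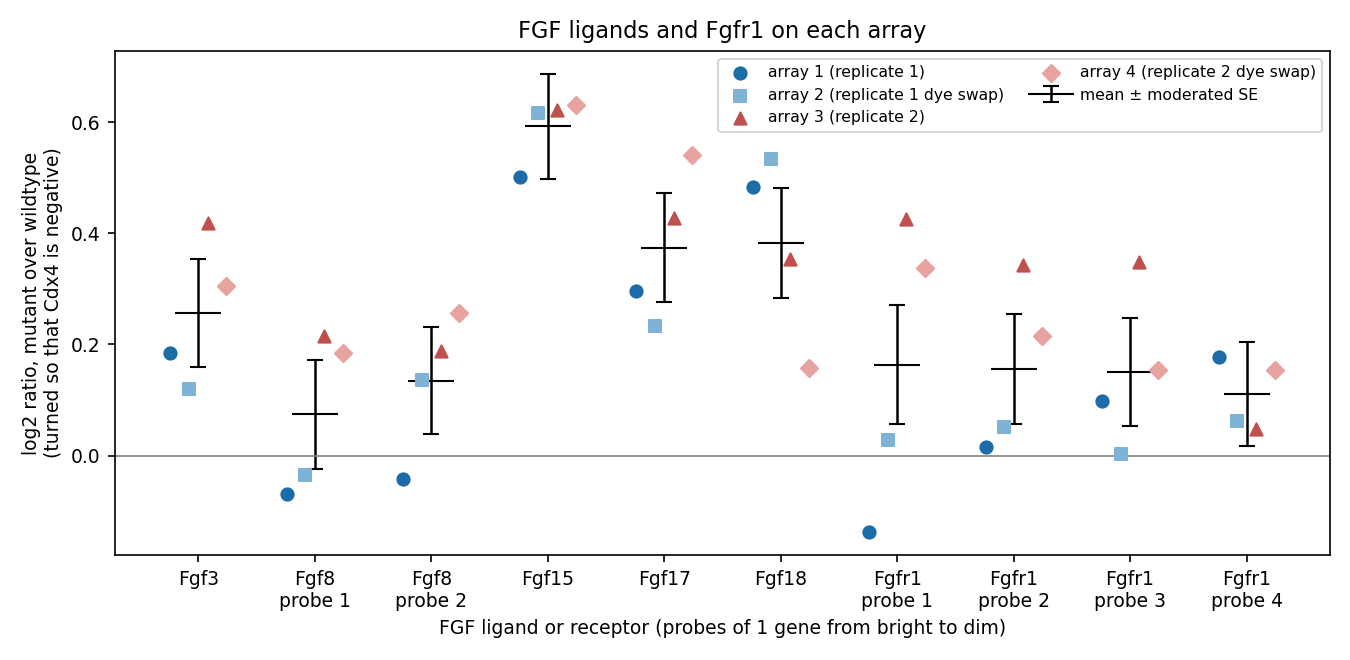
Log2 ratio of mutant over wildtype (vertical axis) for the 10 probes of the 6 genes, with 1 symbol per array and a bar for the mean ± moderated standard error. Fgf15 stands between 0.50 and 0.63 on all 4 arrays, while the bright Fgf8 probe lies below 0 on arrays 1 and 2 and above 0 on arrays 3 and 4.

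Fgf15, the mouse counterpart of a human ligand with endocrine roles and a gene expressed in the embryonic neural tube, had the largest ratio of the 6. Its probe lies on chr7:144709856-144709915 (mm8, plus strand). The ratio was 0.50, 0.62, 0.62 and 0.63 on arrays 1 to 4. All 4 arrays lay on the same side of 0 and within a narrow band. The mean was 0.59 ± 0.094, a fold of 1.51 with a 95% interval from 1.31 to 1.73 (adjusted p = 0.000749). On the log2 intensity scale the probe read 9.99 ± 0.14 in the mutant channel and 9.40 ± 0.080 in the wildtype channel (SD, n = 4 arrays). It was also the single gene of the 6 that passed with the scanner's own processed signals (0.67, adjusted p = 0.0154) and in the fit of arrays 1 and 4 alone (0.57, adjusted p = 0.0285).

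A second probe lies 2.62 kb from the Fgf15 probe on the same strand, at chr7:144707237-144707296. The file names it by a cDNA clone and describes the product as fibroblast growth factor 15, so it was not chosen by name and was kept out of the counts. It read 0.38, 0.32, 0.26 and 0.34 on arrays 1 to 4, again on the same side of 0 throughout. Its mean of 0.33 ± 0.094 passed narrowly (adjusted p = 0.0493) and was smaller than that of the named probe.

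Fgf18, a ligand also known from skeletal growth, rose with a mean of 0.38 ± 0.099. Its probe lies on chr11:33017441-33017500 (mm8, minus strand). The ratio was 0.48, 0.53, 0.35 and 0.16 on arrays 1 to 4. Arrays 1 and 2 were the high pair and array 4 was the lowest, so the ordering was the reverse of that seen in Fgf17. The fold was 1.30 with a 95% interval from 1.13 to 1.50 (adjusted p = 0.0260). The call ended with the scanner's processed signals (0.44, adjusted p = 0.0736).

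Fgf17, which belongs to the same subfamily as Fgf8 and Fgf18, rose by a similar amount. Its probe lies on chr14:69373992-69374051 (mm8, minus strand). The ratio was 0.30, 0.23, 0.43 and 0.54 on arrays 1 to 4, and here arrays 3 and 4 were the high pair. The mean was 0.37 ± 0.098 and the fold 1.30, with a 95% interval from 1.12 to 1.49 (adjusted p = 0.0275). With processed signals the ratio was larger, at 0.58, but the call ended (adjusted p = 0.0509).

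Fgf3, a ligand known from tail and inner ear development, was above 0 on every array but did not pass. Its probe is placed on chr7:144650152-144652011 (mm8, plus strand), an interval longer than a single oligonucleotide. The ratio was 0.18, 0.12, 0.42 and 0.30 on arrays 1 to 4. Both arrays of replicate 2 were higher than both arrays of replicate 1. The mean was 0.26 ± 0.097 and the adjusted p was 0.155. It passed with arrays 1 and 3 paired (adjusted p = 7.05e-06) and with a dye term (adjusted p = 0.000232). The ratio was 0.41 with processed signals and 0.41 with median centring. The 95% interval of the ratio ran from 0.052 to 0.46 before adjustment over genes. A ratio above 0 on all 4 arrays was found for 24.9% of all genes tested, and a ratio below 0 on all 4 for 19.6%.

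Proximal promoter sequence is shown for Fgf18 and Fgf3, the members with both a tested probe and an entry in the RefSeq promoter table (GRCm38.p6), which held 3 of the 7 genes. The 250 bases before each start are given 5′ to 3′ on the gene's strand. Fgf18 lies at chr11:33147401-33147650 (minus strand) and Fgf3 at chr7:144838362-144838611 (plus strand). The motif searched was TTTAT, the core recognised by Cdx factors, on both strands (ATAAA on the other). Matches would be printed in capitals.
Fgf18: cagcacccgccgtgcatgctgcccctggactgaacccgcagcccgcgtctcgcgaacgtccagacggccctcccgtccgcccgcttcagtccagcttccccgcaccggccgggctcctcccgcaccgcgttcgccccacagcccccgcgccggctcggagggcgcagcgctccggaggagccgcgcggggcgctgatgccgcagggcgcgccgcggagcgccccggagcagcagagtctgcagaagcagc
Fgf3: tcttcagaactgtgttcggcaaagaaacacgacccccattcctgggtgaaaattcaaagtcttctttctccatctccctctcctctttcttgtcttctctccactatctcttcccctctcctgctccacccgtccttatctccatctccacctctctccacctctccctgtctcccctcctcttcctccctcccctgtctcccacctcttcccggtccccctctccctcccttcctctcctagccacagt
Neither window held the motif, and neither did that of Fgf4. It was present in 37.3% of 32851 promoter windows of the same length. The absence says only that these letters are not in these windows. The windows differed in base composition, with 77.2% G and C for Fgf18 and 55.2% for Fgf3, beside a median of 52.4% over all windows.

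Fgf8, a principal ligand of the tail bud, had means of opposite sign in the labelled replicates. In the turned direction these replicates also differ in dye orientation, so the gap cannot be assigned to either. Its bright probe lies on chr19:45790185-45790244 (mm8, minus strand) and is spotted 10 times on each array. The ratio was -0.068, -0.036, 0.22 and 0.18 on arrays 1 to 4. Arrays of replicate 1 were slightly below 0 and arrays of replicate 2 above it. The mean of 0.074 ± 0.099 did not pass (adjusted p = 0.804), and its 95% interval ran from -0.13 to 0.28. A fold above 1.22 or below 0.91 in the mutant therefore lay outside the interval.

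The replicate spots of that Fgf8 probe give the technical spread within an array. The standard deviation between spots was 0.049, 0.062, 0.063 and 0.084 on arrays 1 to 4. The ratio was above 0 in 1 of 10 and 3 of 9 spots on arrays 1 and 2, and in 10 of 10 and 9 of 9 on arrays 3 and 4. Before turning, Cy5 over Cy3 was below 0 on every array (-0.068, -0.036, -0.22 and -0.18), so its sign followed the dye. In the fit with a dye term this probe did not pass either (adjusted p = 0.137). A dimmer Fgf8 probe on chr19:45794922-45794981 read -0.043, 0.14, 0.19 and 0.26. Its mean of 0.13 ± 0.096 did not pass (adjusted p = 0.546). It did pass with a dye term (adjusted p = 0.0211), with arrays 1 and 3 paired (adjusted p = 0.0289) and with arrays 1 and 4 paired (adjusted p = 0.00367).

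**Figure D2:**
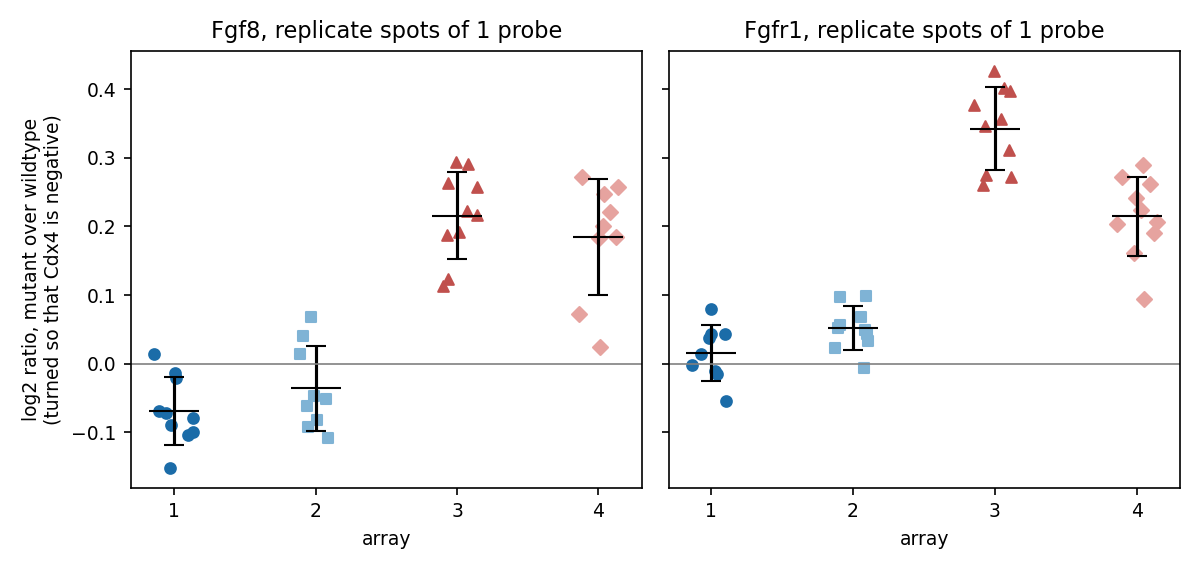
Log2 ratio of mutant over wildtype for each replicate spot of 1 Fgf8 probe and 1 Fgfr1 probe, by array, with the mean and standard deviation over spots. For Fgf8 the spots of arrays 1 and 2 average -0.068 and -0.036 and those of arrays 3 and 4 average 0.22 and 0.18.

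Fgfr1, the receptor through which the posterior mesoderm receives most of the FGF signal, had 4 probes on chromosome 8 and passed with none in the stricter fit. With a dye term all 4 passed (adjusted p from 0.00701 to 0.0435), and with arrays 1 and 3 paired 3 of 4 did. The brightest, on chr8:27039136-27039195 (mm8, plus strand), read -0.14, 0.027, 0.43 and 0.34 on arrays 1 to 4. Arrays 3 and 4 were high and array 1 was below 0. The mean was 0.16 ± 0.11 (adjusted p = 0.490). The probe spotted 10 times, on chr8:27039115-27039174, overlaps it and read 0.015, 0.051, 0.34 and 0.21. Its mean was 0.16 ± 0.098 (adjusted p = 0.464). The remaining probes, at chr8:27035238-27035297 and chr8:26997829-26997888, averaged 0.15 and 0.11. All 4 means were positive and within 0.11 to 0.16, and the probes share the same RNA, so they are not replicates of the condition.

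In the turned direction the mutant RNA was in Cy5 on arrays 1 and 2 and in Cy3 on arrays 3 and 4. Replicate and dye therefore cannot be told apart in the gap between the replicates. That gap is the residual of the stricter fit, so its standard errors and p-values carry any dye difference along with replicate spread. Turned arrays 1 and 2 correlated at 0.82, and arrays 3 and 4 at 0.87, across the tested probes. Fgf3, Fgf8, Fgf17 and Fgfr1 were higher in replicate 2 (0.36, 0.20, 0.48 and 0.38) than in replicate 1 (0.15, -0.052, 0.26 and -0.055). Fgf18 went the other way, with 0.51 in replicate 1 and 0.26 in replicate 2. Fgf15 was nearly level, at 0.56 and 0.63. The order of mean ratios was Fgf15, Fgf18, Fgf17, Fgf3, Fgfr1 and Fgf8. Each step from Fgf18 down to Fgf8 was smaller than the sum of the neighbours' standard errors, and differences between genes were not tested.

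Fgf3, Fgf4 and Fgf15 are neighbours on mouse chromosome 7 in the RefSeq gene order, and the probes around them were listed. Within 500 kb of a member there were 20 probes under the file's positions, of which 14 were tested. Of these, 3 rose (the Fgf15 probe, the FGF15 clone probe and the probe of Tmem16a), none fell and 11 had a positive mean. Tmem16a was thus the single called gene other than Fgf15. Over all genes tested, 2.94% rose and 3.91% fell. The median of the 14 probes was 0.17, beside 0.015 over all genes. Tmem16a, a calcium-activated chloride channel gene now called Ano1, lies 311 kb from the Fgf15 probe and read 0.56, 0.35, 0.93 and 0.65 on arrays 1 to 4. Its mean was 0.62 ± 0.10 (adjusted p = 0.000936), and 1.51 with processed signals. Ccnd1, the cyclin D1 gene 29.8 kb from the Fgf15 probe, read 0.24, 0.24, 0.23 and 0.28 and did not pass (0.25 ± 0.094, adjusted p = 0.157). Probes of Cttn and Tpcn2, toward the ends of the interval, averaged between -0.030 and 0.056. The tested probes of Ppfia1 averaged -0.17 and -0.098, those of Fadd 0.18 and 0.19, and those of Oraov1 0.16 and 0.086. None of these passed. A probe without a gene name at chr7:144672165-144672224, between Fgf3 and Fgf15, was well above background on 1 array in each channel. It was not assigned to Fgf4, since the gene table is on another build.

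**Figure D3:**
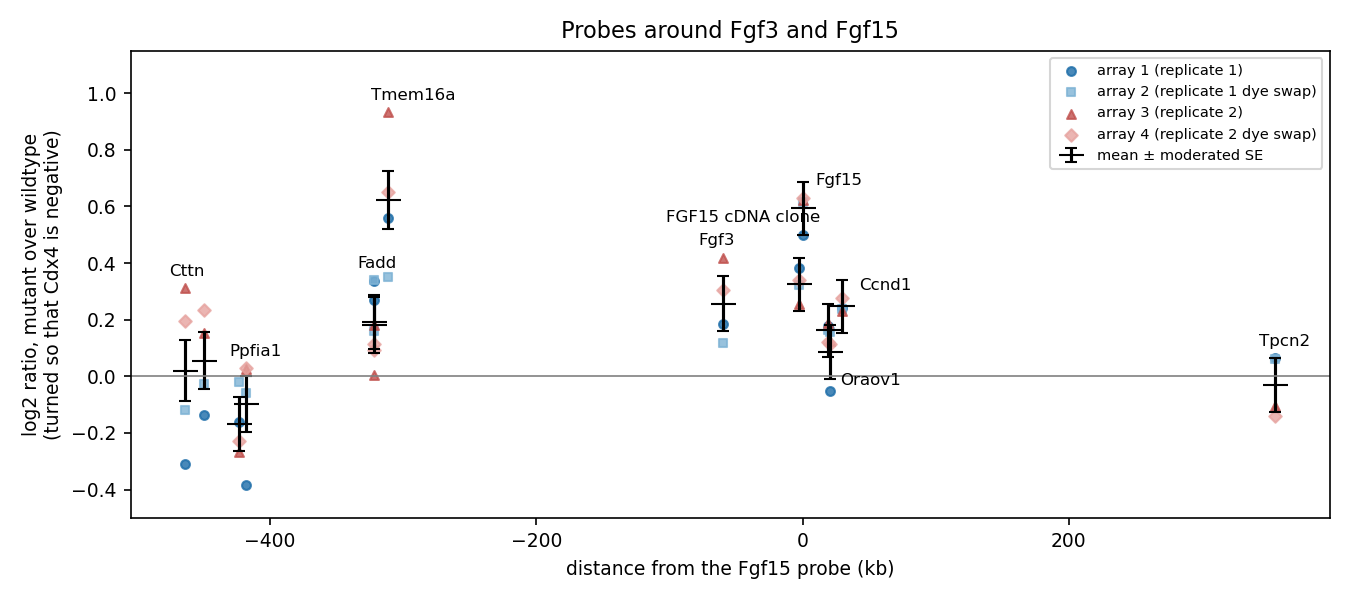
Log2 ratio of mutant over wildtype for the 14 tested probes within 500 kb of Fgf3 or Fgf15, by distance from the Fgf15 probe in kb, with 1 symbol per array and a bar for the mean ± moderated standard error. Tmem16a (0.62) and Fgf15 (0.59) are the highest, and the probes of Fgf3 (0.26) and Ccnd1 (0.25) lie above 0 on all 4 arrays.

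The genes most like Fgf15 and Fgf18 over the 4 arrays were found by the largest difference in ratio on any array, among 12364 genes. For Fgf15 the closest were Hoxd9, a posterior Hox gene, with a largest difference of 0.066, Ttc39c with 0.078 and Ndrg1 with 0.080. Hoxd9 read 0.57, 0.58, 0.65 and 0.68 on arrays 1 to 4. For Fgf18 they were Angptl6 with 0.061, Cpxm1 with 0.068 and Galnt12 with 0.077. Angptl6 read 0.43, 0.51, 0.33 and 0.22, highest on array 2 and lowest on array 4, as Fgf18 was. Each of Fgf15 and Fgf18 had 5 genes within 0.1 on every array.

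The other genes of the pathway were split evenly around 0, with 29 positive and 29 negative means. Of 76 further pathway genes listed, 74 had a probe and 58 were tested. Of these 58 genes 1 rose and 3 fell, beside 2.94% and 3.91% over all genes. Their median ratio was -0.0035. With arrays 1 and 3 and arrays 2 and 4 paired, 16 rose and 16 fell, where 21.6% and 18.8% of all genes did. By list, these were 2 and 0 for other ligands, 3 and 3 for receptors and binding partners, and 3 and 6 for heparan sulfate. Adaptors and the ERK cascade had 2 and 6, and feedback and transcriptional targets 6 and 1. For the unadjusted counts below, 2901 of 14842 genes had a limma p under 0.05 in the stricter fit, in either direction.

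Among other ligands, 4 of 16 were bright enough to test and none passed in limma, with 2 higher and 0 lower at an unadjusted p under 0.05. Fgf9, a ligand of mesenchyme and gonad, averaged 0.22, and Fgf10, the limb and lung bud ligand, 0.20. Fgf13 and Fgf11, which act inside the cell, averaged 0.035 and 0.00038. Fgf9 and Fgf10 were above 0 on all 4 arrays. With processed signals 2 of the 4 passed as higher, and the median of the list was 0.40 in place of 0.12. Processed signals also passed somewhat more of all genes tested, in each direction, than the stricter fit did.

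Of 9 tested receptors and binding partners, Fgfbp3 alone passed. It encodes a secreted carrier that binds FGF ligands, and it rose with 0.96, 0.74, 1.09 and 1.12 on arrays 1 to 4. The mean was 0.98 ± 0.099 (adjusted p = 6.24e-06), the largest among the pathway genes tested. Fgfr2, the receptor used in epithelia, was just outside the threshold (0.35 ± 0.10, adjusted p = 0.0501), and its second probe averaged 0.16 (adjusted p = 0.426). Fgfr3 and Fgfr4 averaged -0.10 and -0.20 and did not pass. A second Fgfr3 probe averaged -0.14, and further Fgfr4 probes averaged -0.012 and -0.0067. Under median centring both genes turned positive (0.21 and 0.033) but stayed below the median of all genes, which was 0.28 there. Klb, a co-receptor of endocrine FGFs, averaged -0.33 (adjusted p = 0.0705).

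Heparan sulfate genes, which supply the co-receptor chains, had 0 higher and 1 lower of 18 tested (2 and 2 at an unadjusted p under 0.05). Sdc2, a syndecan core protein gene, fell (-0.37 ± 0.096, adjusted p = 0.0272), and its second probe averaged -0.25 and did not pass (adjusted p = 0.145). The call ended with processed signals (-0.46, adjusted p = 0.0601). Adaptors and the ERK cascade had 0 higher and 1 lower of 16 (0 and 5 unadjusted). Braf, a RAF kinase gene, read -0.70, -0.33, -0.52 and -0.42 and fell with -0.49 ± 0.094 (adjusted p = 0.00344). Of the other 4 Braf probes, 1 passed as lower (-0.58, adjusted p = 0.00185) and the dimmest averaged -0.029.

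Feedback and transcriptional targets, the usual readout of FGF activity, had 0 higher and 1 lower of 11 (2 and 1 unadjusted). With arrays 1 and 3 and arrays 2 and 4 paired, 6 were higher and 1 lower, where 21.6% and 18.8% of all genes were. Dusp4, a nuclear ERK phosphatase gene, read -0.39, -0.42, -0.90 and -0.78 on arrays 1 to 4, the opposite side from the ligands. Its mean was -0.62 ± 0.11 (adjusted p = 0.00151), and its second probe fell as well (-0.39, adjusted p = 0.0216). Dusp6 and Spry2, both feedback inhibitors, averaged 0.25 (adjusted p = 0.174) and 0.33 (adjusted p = 0.0612) and did not pass in the stricter fit. Both passed in limma with arrays 1 and 3 paired (adjusted p = 1.86e-05 and 3.55e-09). The ETS factor genes Etv4 and Etv5 averaged 0.090 and 0.13. The median of these targets was 0.13.

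**Figure D4:**
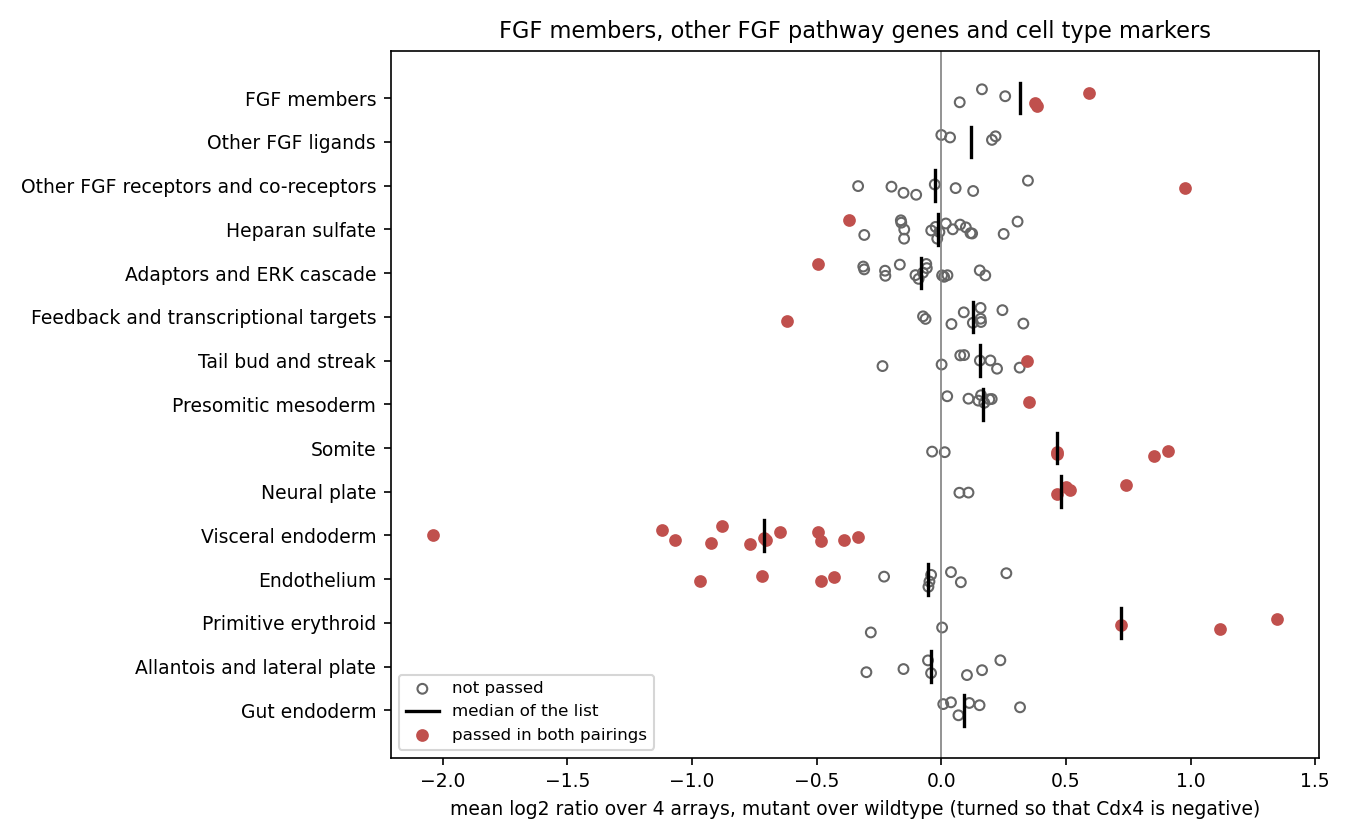
Mean log2 ratio of mutant over wildtype (horizontal axis) for each tested gene of the FGF members, 5 lists of other pathway genes and 9 lists of cell type markers, with a line at the list's median. Filled points passed the test. The FGF members have a median of 0.32, the somite markers 0.46, the neural plate markers 0.48 and the visceral endoderm markers -0.71.

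Markers of the tissue and of its neighbours were read on the same arrays. Over all genes tested, 2.94% passed as higher and 3.91% as lower. All 9 tail bud markers and all 8 presomitic mesoderm markers on the array were bright enough to test. Tail bud markers had 1 higher (Wnt3a, 0.34) and 0 lower, with a median of 0.15, and presomitic mesoderm markers 1 higher (Lfng, 0.35) and 0 lower, with a median of 0.17. With processed signals the Wnt3a call ended (0.36, adjusted p = 0.121), leaving 0 tail bud markers, while Lfng was 0.79 and 2 presomitic markers passed as higher. Somite markers had 4 higher of 6 tested (Meox1 0.91 and Tcf15 0.85), and Pax1 and Pax3 were on the array but not tested. Neural plate markers had 4 higher of 6 tested (Gbx2 0.74 and Sox2 0.52), and Pax6, Irx3 and Olig2 were on the array but not tested. All 13 visceral endoderm markers fell (median -0.71, Afp -2.04), and none was too dim to test. Their summed level was 39143 to 40804 in the mutant channels and 83208 to 95821 in the wildtype channels. Sums were taken on the unlogged scale, so the brightest genes weigh most, here Rbp4 and Afp (wildtype log2 levels of 15.2 and 14.5). The neural plate sum was 6389 to 6891 against 4543 to 4813, and the somite sum 6944 to 7825 against 5100 to 5411. Endothelial markers had 4 lower of 11 and primitive erythroid markers 3 higher of 5 tested. Gata1 and Klf1 of the erythroid list were on the array but not tested. At an unadjusted p under 0.05 in limma, 1 endothelial marker was higher (Emcn, 0.26) and 1 erythroid marker lower (Hba-a1, -0.28). In the same way, tail bud markers had 3 higher and 1 lower. The allantois and gut lists had none called (0 of 7 and 0 of 6 tested, with 2 and 1 at an unadjusted p under 0.05), and Cer1 of the gut list was not tested. Tbx4 of the allantois list averaged -0.30, and passed as lower with processed signals (-1.09, adjusted p = 0.00278) and without background correction (-0.44, adjusted p = 0.00816). These shifts stand beside the FGF ratios above, and their part in those ratios was not tested. In pooled tissue, more cells of a type and more RNA per cell cannot be told apart.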

How the data were processed

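The arrays were Agilent whole mouse genome arrays of 2 colours, scanned to text with Agilent Feature Extraction 9.5.3, as named in the submitters' processing notes. The deposited files give mean signal and local background as intensity for Cy3 and Cy5, and probe positions on mm8, per the file headers. The authors' deposited series table holds log10 ratios that equalled the scanner's log ratio in 100% of features (tolerance 1e-04, apart from sign), with a median of 0 in each column. Normexp background correction (offset 50) and within-array loess with control spots at weight 0 were run in limma 3.58.1 (R 4.3.3). Control and outlier spots (103 to 167 per array) were left out and spots of 1 probe averaged. For the levels by channel, but not for the ratios, average intensities were also quantile-normalised between arrays (Aquantile in limma). Summed levels of a list add unlogged levels. Testing required that the channel of 1 genotype or the other was well above background on each of the 4 arrays. Between 50.6% and 56.4% of Cy3 spots and 58.9% and 64.9% of Cy5 spots were well above background. Each gene is its brightest tested probe. Each replicate's arrays were averaged and fitted with lmFit and eBayes (17.2 prior and 1 residual degrees of freedom), and p-values were adjusted by Benjamini-Hochberg across the 21800 tested probes (threshold 0.05). The number of arrays limits the precision of every value. Members and gene lists were chosen with earlier results of these data known. Genes outside the members are named if called in both pairings, or for the 2 largest absolute ratios of a marker list; those that did not pass are named for their role and were chosen after their values were seen. The fitting step was also run on simulated ratios with independent noise, whose spread was taken from these arrays. That noise had no dye or replicate structure, and the outcome is not given here.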

Additional observations from a re-analysis of the deposited data

Results flagged for a closer look

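Among 26 sets of 4 array values examined, 1 stood apart. Fgf15 read 0.50 on array 1, against 0.62 to 0.63 on the other 3 arrays, and this gap was large for the range of the 4 values (0.89 of it, past Dixon's critical value for 4 values). Chance flags about 1 set in 20. The ratio stayed on the same side of 0 on all 4 arrays.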

How the results depend on the processing

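The count of 3 higher FGF genes became 5 in the exchange pairing (arrays 1 with 3 and 2 with 4), 5 in the third pairing and 5 with a dye term. It was 0 as labelled, 1 with arrays 1 and 4 alone, 0 with arrays 2 and 3 alone, 0 with median centring, 1 with the scanner's processed signals, 1 with the authors' series table and 0 without the filter on dim probes. With arrays 2 and 3 alone, 2 genes passed as lower. By limma, genes with an unadjusted p under 0.05 numbered 2901 in the stricter fit and 239 as labelled. They numbered 274 with median centring, 2097 with arrays 2 and 3 alone and 3851 without the filter. Over all genes tested, more passed in each direction in the third pairing than in the exchange pairing or with a dye term. With processed signals or the series table, more of all genes passed in each direction than in the stricter fit. As labelled, ratios reversed for Fgf3 (-0.012), Fgf8 (-0.016), Fgf15 (-0.027), Fgf18 (-0.062) and Fgfr1 (-0.064). With arrays 2 and 3 alone they reversed for Fgf3 (-0.27), Fgf8 (-0.090), Fgf15 (-0.62), Fgf17 (-0.33), Fgf18 (-0.44) and Fgfr1 (-0.23). The labels of arrays 2 and 3 oppose the turned direction, so the second set reverses by construction. As labelled, arrays 1 and 4 run with it and arrays 2 and 3 against it, so ratios of like size cancel in the mean. Fgf17 stayed positive (0.044). Other pathway genes, 1 higher and 3 lower, became 16 and 16 in the exchange pairing, 19 and 19 in the third, 17 and 16 with a dye term, and 0 and 0 as labelled, with median centring and without the filter. Higher counts were 2 with arrays 2 and 3, 4 with processed signals, 4 with the series table, 2 without background correction and 2 with both channels above background. Lower counts were 1 with arrays 1 and 4, 1 with arrays 2 and 3 and 5 without background correction. Median centring moved the median of all genes to 0.28, and the 6 genes then had a median of 0.57. Apart from the arrays 2 and 3 reversal and the cancelling as labelled, the cause of each change was not tested. With either labelled replicate left out, ratios ranged from 0.15 to 0.36 for Fgf3, -0.052 to 0.20 for Fgf8, 0.56 to 0.63 for Fgf15, 0.26 to 0.48 for Fgf17, 0.26 to 0.51 for Fgf18 and -0.055 to 0.38 for Fgfr1, without a test. Leaving out a labelled replicate also leaves out a dye orientation of the turned arrays, so these ranges hold any dye difference too.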
